A study of Mus musculus with 3 samples.

Results

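Growth factors for the vessel wall, with the matrix protein fibronectin, were followed through the leukocytes of the mouse aorta as a set of 10 genes: Igf1, Pdgfa, Pdgfb, Pdgfc, Vegfa, Vegfb, Tgfb1, Tgfb2, Hbegf and Fn1. They were taken by gene symbol and are 10 of the 32285 genes of the count table. Jak2V617F is an activating mutation of the kinase JAK2 found in myeloproliferative neoplasms. Jak2V617F Myel mice carried Jak2V617F Flex/WT with LysM-Cre, which drives recombination mainly in myeloid cells. Jak2WT mice were the controls. Both groups were on a C57BL/6 background, the study used males and females, and the age of these animals was not given in the sources used here. CD45+ cells of 5 Jak2WT and 5 Jak2V617F Myel aortas were marked with 1 hashtag antibody per mouse, pooled and sequenced as 1 single-cell run. Cells stained by an antibody to CD45.2 given into the blood before death were sorted out, and the sort was set to take similar numbers of cells from each genotype. Jak2WT mice were hashtags 1 to 5. Of the mutants, hashtags 6, 8 and 10 had aortic dilation and hashtags 7 and 9 had an aortic aneurysm.

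After removal of barcodes with several or no hashtags and of cells over 10% mitochondrial counts, 4871 cells remained. Of these, 1780 came from Jak2WT and 3091 from Jak2V617F Myel mice. Each mouse had 112 to 811 cells, with a median of 5442 to 10775 UMIs. A UMI (unique molecular identifier) counts 1 captured RNA molecule. Cells were clustered without the 10 genes and named from marker lists, and the UMIs of a class were summed within each mouse and given as CPM, the UMIs of a gene per 1000000 UMIs of that sum. In such sums, fewer cells with the RNA and less RNA per cell cannot be told apart. Classes were unevenly spread over mice. Of 501 inflammatory macrophages, 246 came from aneurysm mouse 7 and 194 from aneurysm mouse 9. Of 207 cells in a myeloid cluster marked by Saa3, 77 came from Jak2WT mouse 5 and 99 from dilation mouse 10. Mouse was the replicate throughout, and no batch was labelled within the run.

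These proteins are signals through which macrophages can act on smooth muscle cells, fibroblasts and endothelium. PDGF-A, PDGF-B and PDGF-C bind the PDGF receptors of mesenchymal cells and stimulate their growth and migration. VEGF-A drives endothelial growth and permeability, and VEGF-B binds VEGFR1. IGF-1 supports growth and survival through its receptor tyrosine kinase, and HB-EGF does so through the EGF receptor. TGF-β1 and TGF-β2 are secreted in latent form and control matrix production and smooth muscle differentiation. Fibronectin, the product of Fn1, is an adhesive matrix protein bound by integrins.

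In mm10 the genes lie on separate stretches of the genome. Igf1 lies at chr10:87858265-87937042 on the plus strand, Pdgfa at chr5:138976014-138997370 on the minus strand, Pdgfb at chr15:79995874-80014977 on the minus strand and Pdgfc at chr3:81036416-81214040 on the plus strand. Vegfa lies at chr17:46016993-46032369 and Vegfb at chr19:6982473-6987651, both on the minus strand. Tgfb1 lies at chr7:25687002-25705077 on the plus strand, and Tgfb2 at chr1:186622792-186705989 and Fn1 at chr1:71585520-71653200 on the minus strand. RefSeq promoter windows (GRCm38.p6, 250 bases before to 50 bases after a start) were matched for 7 of the 10 genes, in 9 windows, and Pdgfb, Hbegf and Fn1 had no entry. Pdgfa was called higher and Pdgfc lower in inflammatory than in resident macrophages. Vegfa had a higher mean level in the inflammatory ones but too few counts for that test. The windows of these 3 genes are shown. Each is the window of the most upstream start among those matched, which for Pdgfa lies within the gene as placed above. They are Vegfa at chr17:46032328-46032627, minus strand, Pdgfa at chr5:138994895-138995194, minus strand, and Pdgfc at chr3:81036166-81036465, plus strand, and capitals mark GGGCGG on either strand in Vegfa and Pdgfa and the CArG box in Pdgfc.
Vegfa: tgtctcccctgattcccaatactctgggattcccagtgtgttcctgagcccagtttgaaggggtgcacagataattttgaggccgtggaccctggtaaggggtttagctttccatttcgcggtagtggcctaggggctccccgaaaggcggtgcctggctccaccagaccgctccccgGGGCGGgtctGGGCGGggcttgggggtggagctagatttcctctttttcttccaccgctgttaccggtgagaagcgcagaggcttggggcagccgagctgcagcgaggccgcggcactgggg
Pdgfa: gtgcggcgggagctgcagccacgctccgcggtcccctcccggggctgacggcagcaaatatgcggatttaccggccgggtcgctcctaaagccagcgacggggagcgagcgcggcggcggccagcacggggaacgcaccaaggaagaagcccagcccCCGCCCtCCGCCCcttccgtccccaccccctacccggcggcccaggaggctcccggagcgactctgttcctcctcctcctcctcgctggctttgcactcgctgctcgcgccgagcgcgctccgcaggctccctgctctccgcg
Pdgfc: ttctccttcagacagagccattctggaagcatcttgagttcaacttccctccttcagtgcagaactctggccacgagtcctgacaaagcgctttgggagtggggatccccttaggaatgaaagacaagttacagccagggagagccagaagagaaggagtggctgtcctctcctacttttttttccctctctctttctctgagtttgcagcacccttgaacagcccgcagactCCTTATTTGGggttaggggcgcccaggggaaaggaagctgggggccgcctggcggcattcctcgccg
In all, 6 motifs were searched on both strands, a place matched on both strands counting once. GGGCGG was in 35.7% of all 32851 windows, TTCNNNGAA in 8.3%, TGANTCA in 7.81%, ACGTG in 19.6%, TATAAA in 13.6% and the CArG box in 1.63%. Among the windows of these genes GGGCGG was found in those of Pdgfa, Tgfb1, Vegfa and Vegfb. The CArG box was found only in Pdgfc, TGANTCA only in Igf1, and TATAAA only in Tgfb2. ACGTG was found in Tgfb2 and in a second Vegfa window, which lies within the gene and also holds GGGCGG, and TTCNNNGAA in none of the 9 windows. The windows of Pdgfa and Igf1 also lie within their genes. These matches are descriptions of letters in short windows.

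The 10 genes had different sources among aortic leukocytes. Igf1 and Pdgfc were macrophage transcripts. Pdgfa and Pdgfb were highest in inflammatory macrophages. Vegfa was highest in mast cells and neutrophils, Tgfb2 and Fn1 in the Saa3 cluster, and Tgfb1 was spread over every class. The Saa3 cluster was led by Prg4, Saa3, Serpinb2 and Alox15, and most of its cells came from mice 5 and 10. Whether these cells lay in the vessel wall was not examined. Levels were compared between classes within a gene and not between genes, since counts from the 3' end of transcripts do not set genes on 1 scale.

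**Figure D1:**
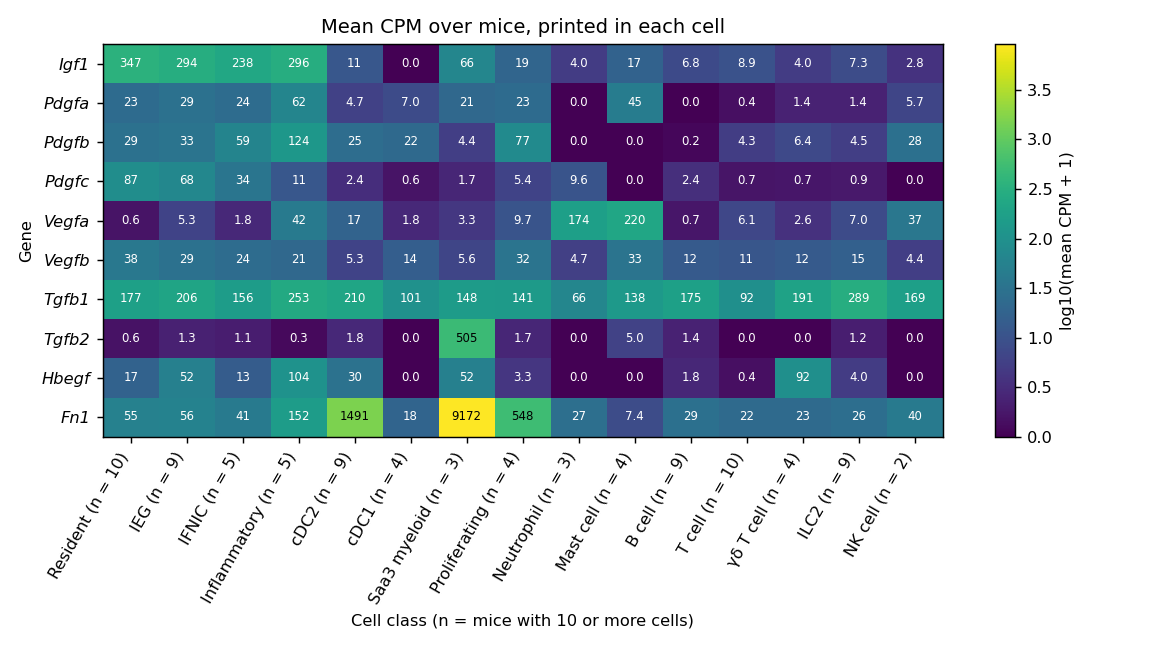
Mean CPM of the 10 genes (rows) in 15 classes of aortic leukocytes (columns), each the mean over the n mice with at least 10 cells of the class; color is log10 of the mean CPM + 1 and the mean is printed in each cell. Igf1 lay between 238 and 347 CPM in the 4 macrophage columns and reached at most 65.7 CPM in the other columns, whereas Tgfb2 was at 505 CPM in Saa3 myeloid cells and at most 5.02 CPM elsewhere.

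Igf1 was abundant and even in resident macrophages. It stood at 349, 312, 412, 286 and 326 CPM in Jak2WT mice 1 to 5, at 476, 327 and 302 CPM in dilation mice 6, 8 and 10, and at 356 and 319 CPM in aneurysm mice 7 and 9. The genotypes overlapped, with mouse 6 above the highest Jak2WT mouse, and the mean over 10 mice was 347 ± 57.3 CPM (SD). Inflammatory macrophages, at 296 ± 193 CPM (n = 5), and IEG macrophages, which carry immediate-early genes, at 294 ± 64.2 CPM (n = 9), overlapped with this range. IFNIC macrophages, which carry interferon-response genes, had 238 ± 29.5 CPM (n = 5) and at most 276 CPM, below the lowest resident value of 286. B cells had 6.8 CPM and T cells 8.9 CPM. Of the 611 T cells, 203 belong to a cluster led by Rag1, Ccr9 and Arpp21, with Rag1 and Dntt known from developing thymocytes, and they were kept in the class. With each cell thinned to 2000 UMIs, an Igf1 UMI was seen in 47.1% of resident macrophages (exact 95% binomial interval 43.0% to 51.2%) and in 1.69% of B cells, which serve as a measure of free RNA. Without thinning the shares were 85.7% and 3.57%, at median depths of 10419 and 5388 UMIs. Cells with under 2000 UMIs were left out of all thinned shares. The binomial intervals pool cells over mice and do not cover the spread between mice.

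Resident macrophages were compared with 5 other leukocyte types in 1 edgeR quasi-likelihood fit over 8773 genes, with Benjamini-Hochberg adjusted p-values. Against cDC2, the conventional dendritic cells that present antigen to CD4+ T cells, 4 of the 10 genes were higher and 3 lower, where 24.1% of all genes were higher and 21.4% lower. Against B cells 6 were higher and none lower (all genes 31.8% and 27.4%). Against T cells 8 were higher and 1 lower (32.2% and 32.1%), against ILC2, innate lymphoid cells, 5 were higher and 2 lower (30.3% and 21.6%), and against neutrophils 6 were higher and 1 lower (22% and 12.8%). Igf1, Pdgfa, Pdgfc and Vegfb were higher in resident macrophages than in each of these 5 types. Several of these calls rest on few UMIs in the other type. Neutrophils held 0 UMIs of Pdgfa, 4 of Pdgfc, 2 of Igf1 and 2 of Vegfb in all. ILC2 held 1 of Pdgfa and 1 of Pdgfc, and B cells and T cells held 1 and 2 of Pdgfa. There the genes passed the filter on low counts through classes where they were higher, so the size of these differences is uncertain. For Igf1 the log2 fold change against cDC2 was 4.37 ± 0.243 (SE, adjusted p = 1.95e-27, edgeR) and against T cells 5.202 ± 0.270 (adjusted p = 2.61e-30, edgeR). The call for Vegfb against ILC2, at 0.93 ± 0.355 (adjusted p = 0.0227, edgeR), was lost without mouse 3 or mouse 10, and those for Pdgfa and Vegfb against neutrophils were lost without mouse 9.

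Of the PDGF ligands, Pdgfc had its highest mean level in resident macrophages. Its levels were 77.0, 84.7, 68.1, 50.4 and 109.8 CPM in Jak2WT mice 1 to 5, 81.2, 93.5 and 112 CPM in dilation mice 6, 8 and 10, and 98.5 and 94.2 CPM in aneurysm mice 7 and 9. Mouse 4, the sample with fewest cells, was lowest, and the groups overlapped. IEG macrophages came next with 68.3 CPM, then IFNIC macrophages with 34.3 and inflammatory macrophages with 10.8, and all lymphocyte classes stayed under 3 CPM. A Pdgfc UMI was seen in 16.4% of thinned resident macrophages (13.5% to 19.7%) against 0.188% of B cells (51.7% and 0.714% without thinning). Pdgfc was higher in resident macrophages than in cDC2 by a log2 fold change of 4.37 ± 0.309 (adjusted p = 1.53e-21, edgeR).

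Pdgfa and Pdgfb were lower in resident macrophages than in inflammatory ones. Pdgfa in resident macrophages ranged from 9.37 to 37.8 CPM over the 10 mice, with a median of 22.3, and Pdgfb from 20.05 to 50.4 CPM with a median of 26.5. Pdgfb was at most 4.47 CPM on average in B cells, T cells and ILC2, whereas NK cells, which kill infected and tumor cells, had 27.7 CPM (n = 2) and 40.5 CPM over all their cells (25.9 to 60.2, exact 95% Poisson interval). Mast cells had Pdgfa at 44.8 ± 48.0 CPM (SD, n = 4), from 0 to 113 on 6 UMIs, and at 27.96 CPM over all their cells (11.2 to 57.6), and had no Pdgfb UMI among 250336, which allows up to 14.7 CPM by the exact Poisson interval. Proliferating cells held Pdgfb at 182 and 114 CPM in aneurysm mice 7 and 9 and at 5.7 and 7.6 CPM in Jak2WT mouse 3 and dilation mouse 10. Genotype could not be tested in these cells with 1 Jak2WT mouse. Their cluster was led by cell-cycle genes such as Top2a and Mki67, and the mix of lineages in it, which can differ between mice, was not examined. Pdgfb did not differ beyond its error between resident macrophages and cDC2 (log2 fold change -0.26 ± 0.334, adjusted p = 0.557, edgeR).

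Vegfa and Vegfb had different leading classes but shared others. By mean CPM over mice, Vegfa was highest in mast cells and neutrophils and Vegfb in resident macrophages. Vegfb was also found in mast cells, at 32.6 ± 38.4 CPM (SD, n = 4, 4 UMIs). Inflammatory macrophages held both, with Vegfb at 20.5 and Vegfa at 42.5 CPM (n = 5). Resident macrophages of all 10 mice held 5 Vegfa UMIs in all, 0.784 CPM (exact 95% Poisson interval 0.255 to 1.83, counting error only), which was no more than the 0.793 CPM of B cells. Vegfb in the same cells ranged from 22.1 to 71.5 CPM with a median of 38.6. Vegfa reached 84.7 CPM in neutrophils of Jak2WT mouse 3 and 205 and 232 CPM in those of aneurysm mice 7 and 9. In mast cells it was 557 CPM in mouse 5, 84.5 in mouse 6, 177 in mouse 7 and 60.3 in mouse 10, so that both classes varied several-fold between mice and overlapped. Thinned to 2000 UMIs, 19.8% of neutrophils (12.7% to 28.7%), 16.7% of mast cells (7.48% to 30.2%) and 9.29% of inflammatory macrophages (6.88% to 12.2%) had a Vegfa UMI against 0.188% of B cells. Without thinning these shares were 25.7%, 27.7%, 23.4% and 0.536%. The thinned share of mast cells is of 48 of 65 cells, the others having too few UMIs. Monocytes, too few for a sum by mouse, had Vegfa at 76.9 CPM over their 29 cells (51.5 to 110, exact 95% Poisson interval). Vegfa was lower in resident macrophages than in neutrophils (log2 fold change -7.47 ± 0.744, adjusted p = 2.42e-14, edgeR) and than in cDC2 (-4.36 ± 0.702, adjusted p = 1.44e-07, edgeR). The lower level than in T cells (-2.42 ± 0.943, adjusted p = 0.0200, edgeR) was lost without mouse 6, and that against ILC2 without mouse 10. All these Vegfa fold changes rest on the 5 UMIs of resident macrophages. The gene passed the filter on low counts only through classes where it was higher, so the size of these differences is uncertain.

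Tgfb1 was the most evenly shared of the set. It ranged from 126 to 219 CPM in resident macrophages with a median of 183 CPM. Its mean was highest in ILC2 at 289 CPM (n = 9), followed by inflammatory macrophages at 253, cDC2 at 210.2, IEG macrophages at 206, and lowest in T cells at 92.2 CPM (n = 10) and neutrophils at 65.9 CPM (n = 3). The single platelet sum, from mouse 6, stood at 862 CPM. Tgfb1 was lower in resident macrophages than in ILC2 (log2 fold change -0.89 ± 0.171, adjusted p = 5.66e-06, edgeR) and higher than in T cells (0.94 ± 0.172, adjusted p = 1.56e-06, edgeR). Its lower level than in cDC2 (-0.45 ± 0.162, adjusted p = 0.0171, edgeR) was not called by DESeq2, with RLE size factors, with sums of at least 1 cell or without mouse 6.

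Tgfb2 was near 0 in every class with sums of at least 3 mice but 1. The Saa3 myeloid cells held it at 354 CPM in Jak2WT mouse 5, 647 in dilation mouse 8 and 515 in dilation mouse 10, the 3 mice with at least 10 such cells. Resident macrophages held 4 Tgfb2 UMIs in all. Tgfb2 and Fn1 were both among the 10 leading genes of the Saa3 cluster, although neither took part in the clustering. A Tgfb2 UMI was seen in 49.5% of thinned Saa3 myeloid cells (42.5% to 56.5%) against 0.188% of B cells (83.1% and 0.893% without thinning, at median depths of 19987 and 5388 UMIs).

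Fn1 had the same leading source. It stood at 10012 CPM in Saa3 myeloid cells of mouse 5, 5766 in those of mouse 8 and 11736 in those of mouse 10. In cDC2 it ranged from 762 to 2496 CPM over 9 mice, and in resident macrophages from 17.0 to 151 CPM with a median of 31.2. B cells had 28.5 and T cells 22.2 CPM, so that most resident macrophage sums lay near the level of cells not expected to express the gene. Fn1 was lower in resident macrophages than in cDC2 (log2 fold change -4.92 ± 0.397, adjusted p = 6.17e-19, edgeR), and it did not pass the test against B cells (0.89 ± 0.474, adjusted p = 0.101, edgeR). It passed against T cells (1.201 ± 0.459, adjusted p = 0.0178, edgeR), a call lost without mouse 2 or mouse 5, whose resident macrophages had the highest levels.

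Hbegf varied widely between macrophage classes and mice. Its mean was 16.5 CPM in resident, 52.2 CPM in IEG and 104 CPM in inflammatory macrophages. γδ T cells also had Hbegf, at 150 CPM in mouse 2, 18.8 in mouse 7, 23.0 in mouse 9 and 174 in mouse 10. Here the aneurysm mice 7 and 9, which gave most of the γδ T cells, lay below the other 2 mice. Mice 2 and 10 had only 11 γδ T cells each, against 59 and 44 in mice 7 and 9. The 4 sums held 44 Hbegf UMIs in all, and the difference was not tested. Summed over all cells, γδ T cells held 3.84% of the Hbegf UMIs, cDC2 13.8% and Saa3 myeloid cells 11.8%.

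The inflammatory macrophages joined 2 clusters. Of these, 318 cells had Mmp12, Spp1 and Il1b among their leading genes, and 183 cells had Mir155hg, Sowahc and Ccr2. They were then compared with resident macrophages in the 5 mice with at least 10 cells of each. These were Jak2WT mouse 2 and mutant mice 6, 7, 9 and 10. The fit had no term for the mouse and treated the sums of the same mouse as independent. A fit with such a term is given below among the alternatives. Of 8 genes tested, Pdgfa, Pdgfb, Hbegf and Fn1 were higher in inflammatory macrophages and Pdgfc was lower, while Igf1, Vegfb and Tgfb1 did not pass the test. Of all 6264 genes 15.1% were higher and 16% lower. Vegfa and Tgfb2 fell under the filter on low counts.

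**Figure D2:**
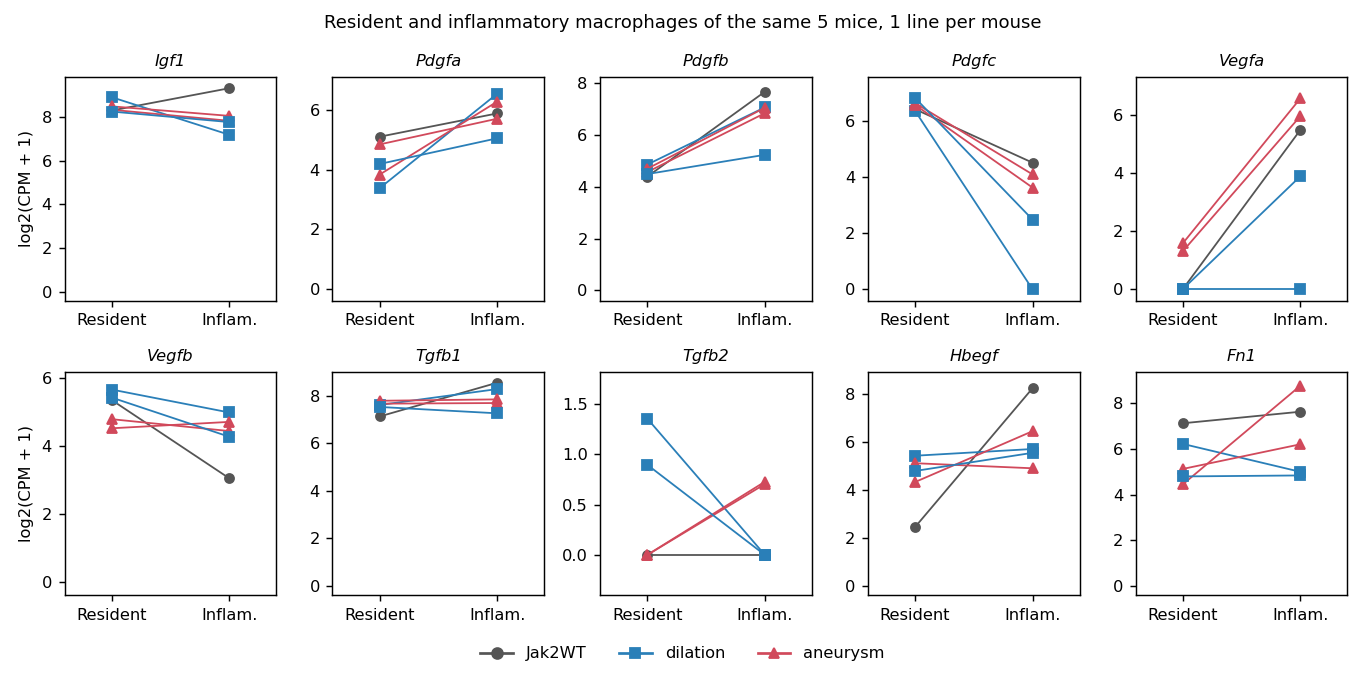
Level of each gene, as log2(CPM + 1), in resident and inflammatory macrophages of 5 mice, with 1 line per mouse and color and symbol for its group (Jak2WT, dilation, aneurysm). Pdgfa and Pdgfb rose and Pdgfc fell in every mouse, Vegfa rose in 4 of 5, and Hbegf and Fn1 did not move the same way in every mouse.

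Pdgfb rose from 20.05 to 204 CPM in mouse 2, from 28.1 to 134 in mouse 6, from 25.0 to 132 in mouse 7, from 22.8 to 114 in mouse 9 and from 21.6 to 36.8 in mouse 10, a log2 fold change of 2.496 ± 0.253 (adjusted p = 6.15e-07, edgeR). Pdgfa rose from 33.4 to 58.2, 9.37 to 92.6, 13.2 to 76.9, 27.8 to 51.3 and 17.2 to 32.2 CPM in the same mice (1.78 ± 0.276, adjusted p = 7.38e-05, edgeR). Pdgfc fell from 84.7 to 21.8, 81.2 to 0, 98.5 to 16.1, 94.2 to 11.3 and 112 to 4.6 CPM (-2.70 ± 0.225, adjusted p = 6.86e-08, edgeR). The PDGF ligands thus moved in opposite directions, and these 3 calls were kept in each of the 19 alternatives run for them. Among these alternatives, leaving out a mouse that is not in this comparison repeated the same fit and could not change a call.

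Hbegf rose from 4.46 to 306 CPM in mouse 2 and from 19.1 to 87.0 in mouse 7, and less in mouse 6 (42.1 to 51.4) and mouse 10 (26.7 to 46.0). In mouse 9 it went from 33.7 to 29.0 CPM, and the call (1.65 ± 0.501, adjusted p = 0.0180, edgeR) was lost without mouse 7. Hbegf was also among the genes that led the smaller of the 2 inflammatory clusters, although it took no part in the clustering. Fn1 was 434 CPM in inflammatory macrophages of mouse 9 and 197 in those of mouse 2, against 20.8 and 138 in resident ones, and it was 30.9 against 73.4 in mouse 6. Its call (1.96 ± 0.581, adjusted p = 0.0158, edgeR) was lost without mouse 9, with DESeq2, with the 10 genes kept in the clustering and at resolution 1.2.

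Vegfa stood at 43.7, 0, 61.1, 93.9 and 13.8 CPM in inflammatory macrophages of mice 2, 6, 7, 9 and 10, against 0, 0, 1.47, 1.98 and 0 in resident ones. The mouse at 0, number 6, had 11 inflammatory macrophages. Without the filter the log2 fold change was 6.26 ± 0.551 (adjusted p = 1.10e-11, edgeR), a value that rests on the zeros of resident macrophages. Igf1 went from 312 to 633 CPM in mouse 2 and fell in the other 4 mice, for example from 476 to 144 in mouse 6.

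Among the other genes of these pathways, chosen as lists, the inflammatory macrophages had 5 of 8 tested TGF-β response genes higher and 1 lower, with a list median log2 fold change of 1.72 against -0.03 over all genes. They included Smad7 (2.18 ± 0.321), an inhibitor of TGF-β signaling, Tgif1 (2.14 ± 0.170), a transcriptional corepressor, and Skil (2.04 ± 0.192). Of 8 receptors and co-receptors tested, 1 was higher and 5 lower, with Tgfbr1 at 2.78 ± 0.165, Egfr, the receptor of HB-EGF, at -4.71 ± 0.307, and Nrp1, a VEGF co-receptor, at -1.04 ± 0.176. Of 7 carriers, activators and processing enzymes tested 4 were higher, namely Plau (2.29 ± 0.205), Furin (1.31 ± 0.216), a protease that cleaves the TGF-β precursor, Adam17 (1.16 ± 0.193), which sheds EGF-family ligands, and Itgav (1.53 ± 0.215), and Igfbp4, an IGF carrier, was lower (-1.65 ± 0.180). Of 5 fibronectin-binding integrins tested 2 were higher, Itgav and Itga5 (2.57 ± 0.222), a chain of a major fibronectin receptor. Of 15 immediate-early and heat-shock genes 2 were higher and 4 lower. Of 4 other ligands tested, Areg, a ligand of the EGF receptor, was higher (5.07 ± 0.576) and Gas6 (-2.28 ± 0.220) and Grn (-0.65 ± 0.132) were lower. Of 3 matrix genes tested none was higher and 2, Ecm1 and Ccn1, were lower. Apart from the members, genes of these lists were not kept out of the clustering, so part of these differences can be built in by the grouping.

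Within resident macrophages, a cluster of 347 cells led by Retnla, Cd209d and Aqp1, which scored best on the Res-S100hi marker list, was compared with a cluster of 247 cells led by Ddit4 and Txnip. Only 4 of the 10 genes had enough counts. Igf1 was lower in the first cluster (log2 fold change -0.46 ± 0.137, adjusted p = 0.0272, edgeR), a call lost without mouse 1, 5, 7 or 8 and without the filter on low counts. Pdgfc (0.38 ± 0.183, adjusted p = 0.193, edgeR), Vegfb and Tgfb1 did not pass. Of all 4465 genes 8.04% were higher and 4.88% lower. Of 15 immediate-early and heat-shock genes, which respond to tissue handling, 14 were higher in the first cluster, and their part in the difference of Igf1 was not tested. These 15 genes were not kept out of the clustering, so a difference in them between clusters can be built in by the grouping.

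The genotypes were compared over the sums of all leukocytes of each mouse, 5 against 5. None of the 10 genes was called, and neither was any of the 10710 genes tested (0% higher and 0% lower, edgeR, and 0 of the 10 at an unadjusted p under 0.05). DESeq2 called 56 genes, none of them among the 10. Vegfa had the largest fold change, 1.504 ± 0.686 on the log2 scale (adjusted p = 0.481, edgeR), and the spread within the mutants was wide, as described with disease severity. No gene of the lists of related ligands, receptors, carriers, TGF-β response, matrix, integrin or immediate-early genes was called, nor was any marker of other cells. The summed markers of fibroblasts were 1025 ± 1335 CPM (SD) in Jak2WT and 155 ± 132 in mutants, with mouse 4 highest at 3359 CPM, those of T and B cells 1093 ± 604 and 705 ± 285, of platelets 10.7 ± 15.9 and 54.9 ± 73.0, of endothelium 34.9 ± 16.3 and 33.0 ± 24.6 and of smooth muscle 13.0 ± 8.83 and 18.8 ± 22.1. In resident macrophages the fibroblast markers were at 36.3 ± 16.8 and 33.2 ± 16.8 CPM. The sums over all leukocytes include 47 cells of a non-leukocyte cluster, in which Igf1 stood at 509 CPM, and in mouse 4 it held 30.7% of the Igf1 and 20% of the Pdgfa UMIs. With that cluster and platelets left out, 0 of the 10 genes were called for genotype.

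In resident macrophages none of the 7 genes tested was called by edgeR or DESeq2, and 3 (Pdgfa, Tgfb1 and Fn1) had an unadjusted p under 0.05, while 0.678% of 6485 genes were higher and 0.278% lower. The log2 fold change was 0.10 ± 0.134 for Igf1, 0.26 ± 0.161 for Pdgfc, -0.11 ± 0.276 for Vegfb and -0.47 ± 0.229 for Pdgfb. For Pdgfa it was -0.64 ± 0.286 (adjusted p = 0.365, edgeR), with 25.1, 33.4, 17.0, 37.8 and 30.7 CPM in Jak2WT mice 1 to 5, 9.37, 19.6 and 17.2 in dilation mice 6, 8 and 10, and 13.2 and 27.8 in aneurysm mice 7 and 9. The genotypes overlapped. Tgfb1 had 183, 138, 126, 164 and 184 CPM in Jak2WT mice 1 to 5, 194, 176 and 183 in dilation mice and 219 and 201 in aneurysm mice (0.30 ± 0.128, adjusted p = 0.344, edgeR). The genotypes overlapped, with both aneurysm mice and dilation mouse 6 above the highest Jak2WT mouse. Fn1 stood at 138 and 151 CPM in Jak2WT mice 2 and 5 and from 17.0 to 73.4 CPM in the other 8 mice (-1.19 ± 0.453, adjusted p = 0.269, edgeR). Without the filter on low counts it was called (-1.13 ± 0.213, adjusted p = 3.19e-05, edgeR), whereas without mouse 5 it was -0.70 and with MULTIseqDemux assignment -0.23, with adjusted p from 3.19e-05 to 0.903 over the alternatives.

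**Figure D3:**
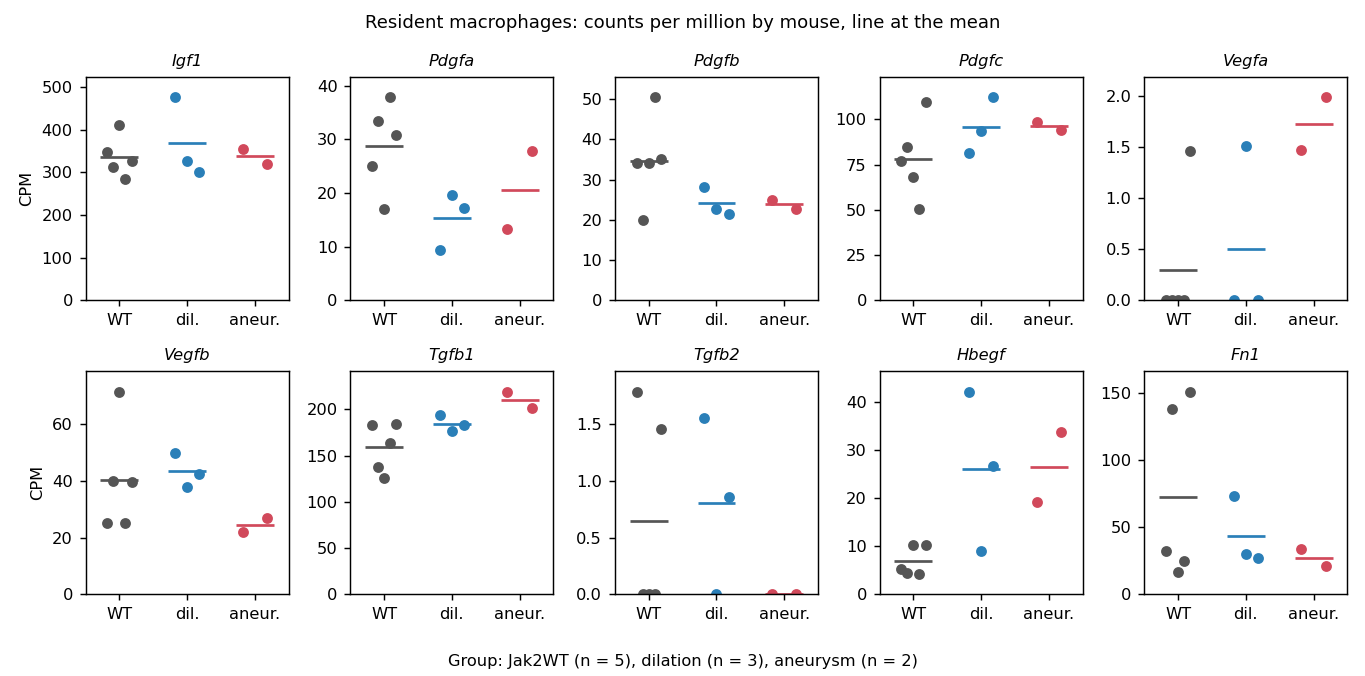
CPM of each gene in resident macrophages of each mouse (points), by group: Jak2WT (n = 5), aortic dilation (n = 3) and aortic aneurysm (n = 2), with a line at the group mean. Igf1, Pdgfc and Vegfb overlapped between the genotypes, Tgfb1 of both aneurysm mice lay above all other mice, and Hbegf lay between 4.20 and 10.2 CPM in Jak2WT mice and between 9.05 and 42.1 CPM in mutants.

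Hbegf in resident macrophages was higher in 4 of 5 mutants than in any Jak2WT mouse. It was 5.37, 4.46, 10.2, 4.20 and 10.2 CPM in Jak2WT mice 1 to 5, 42.1, 9.05 and 26.7 in dilation mice 6, 8 and 10, and 19.1 and 33.7 in aneurysm mice 7 and 9. Mouse 8 alone among mutants lay within the range of the Jak2WT mice. These levels rest on 1 to 7 UMIs per Jak2WT mouse and 6 to 34 per mutant. The gene fell under the filter in the genotype fit, and in the fit of 3 groups it was higher in dilation (1.86 ± 0.483, adjusted p = 0.178, edgeR) and in aneurysm (1.91 ± 0.518, adjusted p = 0.133, edgeR) without passing the threshold. Without the filter the log2 fold change for genotype was 1.93 ± 0.375. That value rests on the few UMIs of the Jak2WT mice, and no call is drawn from it. The summed level of the immediate-early and heat-shock genes in the same cells was 22964 ± 6055 CPM (SD) in Jak2WT and 31346 ± 2262 in mutants, with mouse 2 as the only Jak2WT mouse in the range of the mutants. Its part in the level of Hbegf was not tested.

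In IEG macrophages none of 8 genes tested was called by edgeR or DESeq2, 1 having an unadjusted p under 0.05 (0.45% of 5334 genes higher, 0.356% lower), and Pdgfb had -0.70 ± 0.280 (adjusted p = 0.315, edgeR). Here Hbegf did not separate the genotypes, at 12.1, 61.6, 106 and 13.6 CPM in Jak2WT mice 1, 2, 3 and 5 and 33.8 to 88.6 in mutants. In cDC2, B cells, T cells and ILC2 the genes with enough counts were Tgfb1 in all 4 types and Hbegf and Fn1 in cDC2, and none was called by edgeR or DESeq2 or had an unadjusted p under 0.05. Of all genes, edgeR called 0.024% higher and 0% lower in cDC2, and 0% in either direction in B cells, T cells and ILC2. The genotype difference itself was compared between resident macrophages and cDC2 by an interaction term. None of 8 genes passed by either tool, 1 having an unadjusted p under 0.05 (0.0279% of 7174 genes higher, 0.0558% lower), Igf1 coming nearest at -1.91 ± 0.669 (adjusted p = 0.442, edgeR). Mean Igf1 was 337 CPM in Jak2WT and 356 in mutant resident macrophages, and 3.89 and 16.2 CPM in cDC2. The cDC2 levels lay near the 6.80 and 8.92 CPM of B cells and T cells. Of the receptors and co-receptors, Nrp2, a co-receptor of VEGF family ligands, was higher in mutant resident macrophages (0.60 ± 0.136, adjusted p = 0.0398, edgeR), 1 of 8 tested, and Ier3 was 1 of 15 immediate-early and heat-shock genes that was higher (0.58 ± 0.121, adjusted p = 0.0274, edgeR).

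Disease severity divided the mutants. Vegfa and Pdgfb were higher over all leukocytes of the 2 aneurysm mice than of the 5 Jak2WT mice, 2 of the 10 genes, where 0.907% of 11683 genes were higher and 0.214% lower. Between dilation and Jak2WT mice no gene of the set was called by edgeR or DESeq2 and 0 of the 10 had an unadjusted p under 0.05. In that contrast edgeR called 0% of all 11683 genes higher and 0% lower. These contrasts share the Jak2WT mice.

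Vegfa stood at 3.54, 9.88, 9.19, 2.89 and 7.84 CPM in Jak2WT mice 1 to 5, at 8.16, 6.27 and 3.67 in dilation mice 6, 8 and 10, and at 36.1 and 43.8 in aneurysm mice 7 and 9. The aneurysm mice lay above all 8 other mice, which overlapped. The log2 fold change of aneurysm over Jak2WT was 2.504 ± 0.348 (adjusted p = 0.0150, edgeR), and over dilation 2.82 ± 0.403 (adjusted p = 0.0345, edgeR), the 1 call of the set in that comparison (0.12% of all genes higher, 0% lower), which was lost without mouse 2, 6, 7, 8, 9 or 10. The first was kept in 13 of 16 alternatives and lost without mouse 7 or mouse 9, which leaves 1 aneurysm mouse, and without the inflammatory macrophages.

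Pdgfb stood at 25.6, 32.8, 12.8, 27.0 and 20.3 CPM in Jak2WT mice, 25.7, 20.2 and 15.4 in dilation mice, and 68.9 and 64.6 in aneurysm mice. Again the aneurysm mice lay above all others (1.55 ± 0.285, adjusted p = 0.0364, edgeR), but the call was kept in only 7 of 16 alternatives, with adjusted p up to 0.316, and was lost when any mouse other than 2 or 3 was left out. Against dilation it was 1.77 ± 0.321 (adjusted p = 0.0808, edgeR). Pdgfa lay at 34.4 and 29.3 CPM in aneurysm mice and 6.13 to 33.7 in Jak2WT mice, with mouse 4 among the highest, and did not pass (1.09 ± 0.455, adjusted p = 0.279, edgeR).

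**Figure D4:**
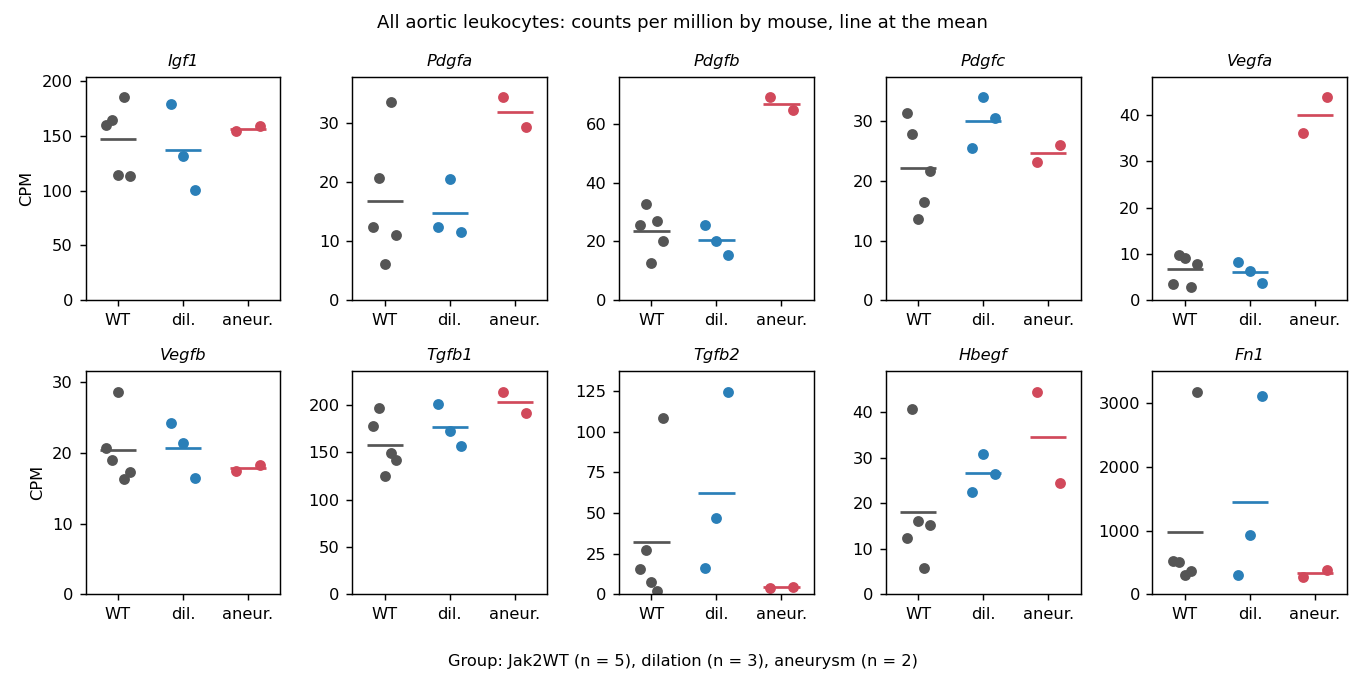
CPM of each gene over all leukocytes of each mouse (points), by group: Jak2WT (n = 5), aortic dilation (n = 3) and aortic aneurysm (n = 2), with a line at the group mean. Vegfa and Pdgfb of both aneurysm mice lie above all other mice, and Fn1 and Tgfb2 are set by 1 Jak2WT mouse and 1 dilation mouse.

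Inflammatory macrophages were most frequent in the same aneurysm mice. They made up 30.3% and 24.4% of the cells of aneurysm mice 7 and 9 and 0.193% to 3.93% of those of the other 8 mice, and they held 58.1% and 70.6% of the Vegfa UMIs and 66.0% and 58.3% of the Pdgfb UMIs of mice 7 and 9. With that class left out, Vegfa was 23.0 and 19.2 CPM in mice 7 and 9 and 3.001 to 9.21 in the other 8 (1.60 ± 0.372 over Jak2WT, adjusted p = 0.204, edgeR). Pdgfb was then 35.7 and 40.2 CPM against 12.8 to 26.0 (0.93 ± 0.264, adjusted p = 0.306, edgeR). Both aneurysm mice were still the highest, with smaller differences. The class left out held most of these UMIs in mice 7 and 9, so a fall in their levels was built into this step. The part of the cell mix in these levels was not tested. In resident macrophages no gene of the set was called between aneurysm and Jak2WT mice, 3 having an unadjusted p under 0.05 (0.346% of 7517 genes higher, 0.0133% lower), and the log2 fold change of Pdgfb there was below 0 (-0.48 ± 0.30, adjusted p = 0.662, edgeR).

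**Figure D5:**
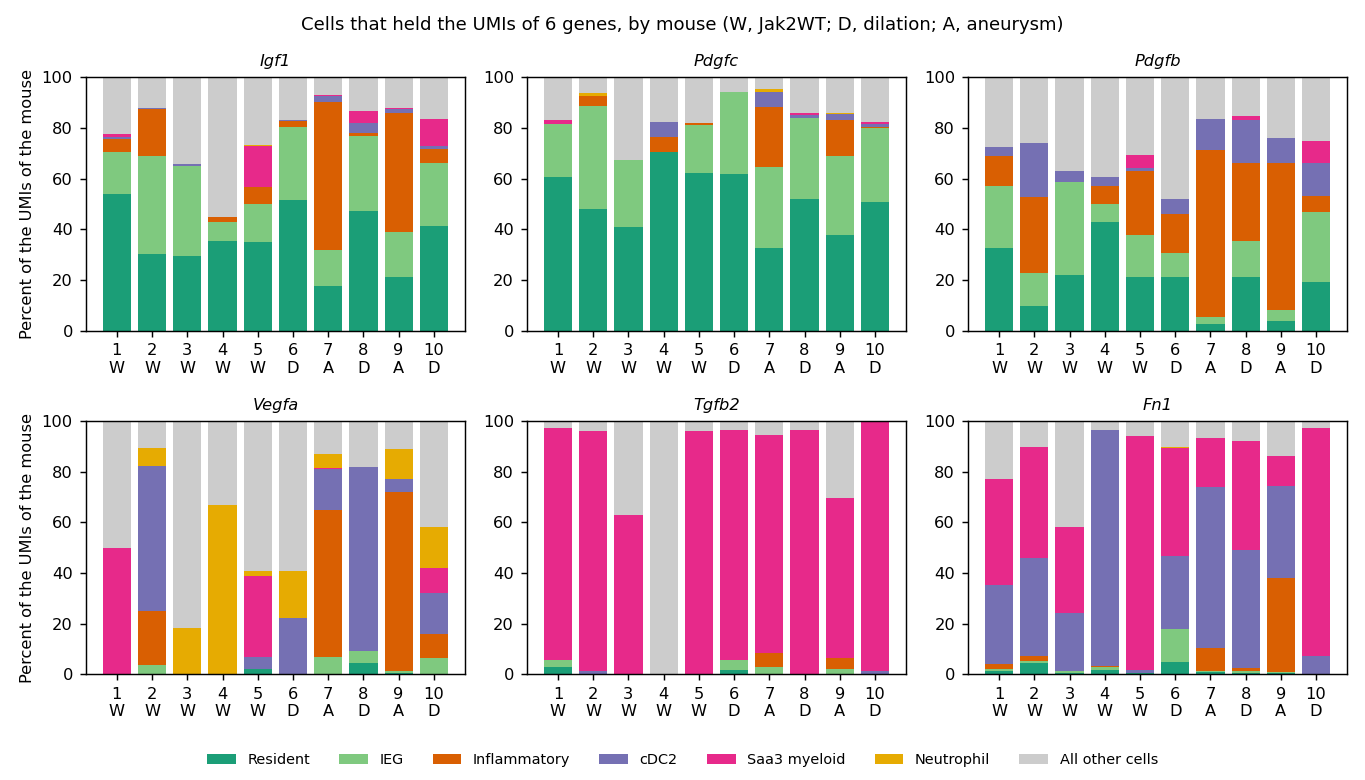
Share of the UMIs of 6 genes held by each class of cells (stacked colors, percent) in each of the 10 mice (W, Jak2WT; D, dilation; A, aneurysm). Inflammatory macrophages held at least 46.7% of the Igf1, Pdgfb and Vegfa UMIs in aneurysm mice 7 and 9, and Saa3 myeloid cells held at least 63.0% of the Tgfb2 UMIs in all mice but mouse 4, which had none of these cells.

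Summed over all cells, inflammatory macrophages held 52.6% of the Vegfa UMIs, 47.1% of Pdgfb, 45.9% of Pdgfa and 31.8% of Hbegf. These shares weigh mice by their UMIs, and 246 and 194 of the 501 inflammatory macrophages came from mice 7 and 9. As a mean over the 10 mice the shares were 16% of Vegfa, 25.1% of Pdgfb, 25.9% of Pdgfa and 16.2% of Hbegf, with cDC2 at 19.4% of Vegfa and IEG macrophages at 22.9% of Hbegf. Resident and IEG macrophages together were the leading source of Pdgfc, with 47.4% and 29.2%, and of Igf1, with 31.8% and 21.6%, to which inflammatory macrophages added 25.2%. As means over mice, resident and IEG macrophages held 51.7% and 26.3% of Pdgfc and 36.3% and 22.8% of Igf1. Within aneurysm mice 7 and 9 that order changed, and inflammatory macrophages held 58.5% and 46.7% of Igf1. Its level over all leukocytes nevertheless ranged from 101 to 185 CPM with no difference called, the highest being mouse 4, where non-leukocytes held 30.7% of the UMIs.

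Saa3 myeloid cells held 95.5% of the Tgfb2 UMIs and 75.6% of the Fn1 UMIs summed over all cells. As a mean over the 9 mice with such cells the shares were 86.6% (63.0% to 98.4%) for Tgfb2 and 46.5% (11.9% to 92.1%) for Fn1, of which cDC2 held a mean of 36.9% (1.15% to 93.2%, n = 10). Fn1 was 3176 CPM in Jak2WT mouse 5 and 3105 in dilation mouse 10, and 279 to 932 CPM in the other 8 mice. Tgfb2 was 108 and 125 CPM in the same mice and 1.93 to 46.8 in the others. Without the Saa3 cells Fn1 ranged from 176 to 570 CPM and Tgfb2 from 0.567 to 6.54 CPM over the 10 mice. Of all Fn1 UMIs, cDC2 held 14.1%.

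Over 14 classes, the profiles of some members ran together. Pearson's r of the mean log2(CPM + 1) was 0.81 for Igf1 with Pdgfc, 0.70 for Tgfb2 with Fn1 and 0.65 for Pdgfa with Pdgfb, and Vegfa with Vegfb had -0.44. These are descriptions over classes that share 1 run and the same mice. The nearest profiles among 11128 genes were found with r of log2(mean CPM + 1), a slightly different measure. Those nearest to Igf1 were Apoe (0.95), C1qa (0.94) and B3galnt1 (0.93), and to Pdgfc Neurl1a (0.95), Siglec1 (0.94) and Gas6 (0.93). Fn1 came nearest to Fcor (0.95), F7 (0.93) and F10 (0.93), Tgfb2 to Ocln (0.95), Erc2 (0.94) and Rp1 (0.94), and Hbegf to Zbtb16 (0.92), Tns4 (0.90) and Lipo3 (0.87). For Pdgfa they were Ift43 (0.94), Snx24 (0.92) and Il11ra1 (0.92), for Pdgfb Luzp1 (0.89), 1700025G04Rik (0.88) and Gm37170 (0.87), and for Vegfa Abr (0.90), Rnf24 (0.88) and Med13l (0.86). Vegfb (Ddah2, 0.88, Xpot, 0.84, and Hpgds, 0.83) and Tgfb1 (Tmem259, 0.85, and Chd9, 0.84) had the least similar neighbors.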

How the data were processed

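The authors deposited 1 table of raw UMI counts, made with Cell Ranger 6.0.2 on mm10, for 32285 genes and 85 antibody features, 10 of them hashtags, in 8471 barcodes, without normalization. The submitters' notes name Seurat 3.0.0. Barcodes were assigned to mice with HTODemux (quantile 0.99, 5857 singlets, 26.7% doublets left out) and cells over 10% mitochondrial counts were removed. Cells were clustered in Seurat 5.3.0 (2000 variable genes without the 10 members, 20 components, resolution 0.3, macrophages again at 0.8) and named from marker lists. The Res-MGL1hi list led no cluster, so the comparison planned for it used the cluster led by Cd209d, which matched the Res-S100hi list best and does not stand for Res-MGL1hi. B cells are the larger of 2 clusters. UMIs were summed per mouse and class (at least 10 cells) and tested with edgeR 4.0.16, quasi-likelihood, filterByExpr and TMM, with Benjamini-Hochberg adjustment over all genes at 0.05, in R 4.3.3. Fits between classes had no term for the mouse, except in the alternative with the mouse as a replicate block. DESeq2 1.42.0 was an alternative. Other alternatives were other size factors, filters, cell minimums, clusterings and hashtag calls. Scripts were tested on simulated data. Doublets were removed by hashtag only. Inflammatory and resident sums paired by mouse deviated together with r = 0.112, 0.0654, 0.281, -0.0504 and 0.139, and they come from the same animals. Depth ranged from 1038440 to 9643990 UMIs per mouse. Intervals cover counting error only. Positions come from GENCODE vM21. Named genes were the members, up to 5 called genes per list with the largest fold change, and the 3 most similar profiles per member. Items withheld from these are not reported here. The members and lists were chosen with earlier results of these data known.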

Additional observations from a re-analysis of the deposited data

Results flagged for a closer look

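Of 59 groups of mice, over all leukocytes, resident macrophages, IEG macrophages and cDC2, 5 held 1 mouse far from the rest by Dixon's test, and chance sets apart about 1 group in 20. All 5 concern Fn1 or Tgfb2. Over all leukocytes, Fn1 was 3176 CPM in Jak2WT mouse 5, with the next Jak2WT mouse at 519, and 3105 CPM in mutant mouse 10, with the next mutant at 932. Tgfb2 was 108 CPM in mouse 5 against 27.2 in the next Jak2WT mouse. These are the mice with 77 and 99 Saa3 myeloid cells. Mouse 6 stood apart among mutants for Fn1 in resident macrophages, at 73.4 CPM with the next at 33.8, and in IEG macrophages, at 272.5 CPM with the next at 39.4, although it had 4 Saa3 myeloid cells.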

How the results depend on the processing

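The counts of genes called among the 10 were kept in most alternatives. The exceptions were as follows. Without the filter on low counts the count was 2 in place of 0 for genotype in resident macrophages (311 against 62 genes in all), 1 in IEG macrophages (190 against 43), 2 each for dilation and for aneurysm against Jak2WT in resident macrophages (201 against 3 and 236 against 27), 2 for aneurysm against dilation over all leukocytes (38 against 14) and 2 for the Cd209d-led against the Txnip-led cluster. DESeq2 gave 2 for aneurysm against dilation (167 genes in all) and called 548 against 131 genes for aneurysm against Jak2WT and 56 against 0 for genotype over all leukocytes. MULTIseqDemux gave 1 for genotype in resident macrophages (235 genes). Leaving out inflammatory macrophages, chosen after seeing the data like the other omissions of cell classes, gave 0 for aneurysm against Jak2WT and 0 for aneurysm against dilation. Leaving out 1 mouse at a time gave 0 to 1 for genotype in resident macrophages, 0 to 2 for each aneurysm contrast over all leukocytes, 0 to 2 for the Cd209d-led against the Txnip-led cluster and 4 to 7 for resident macrophages against neutrophils, the lowest without mouse 9. Fits without mouse 7 or 9 leave 1 aneurysm mouse, assumed to vary like the other groups. Shares of all genes called are not given for these alternatives or for the fits with the mouse as a block below. The number of genes called in all also changed between settings, so these counts are not read as results about the 10 genes.

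With the mouse as a replicate block, 6 genes were called between inflammatory and resident macrophages in place of 5, the addition being Vegfa (5.79 ± 0.463). That fold change rests on the near absence of Vegfa UMIs in resident macrophages. Between the Cd209d-led and Txnip-led clusters 3 were called in place of 1. Over all genes, the first comparison called 1702 with the block, against 946 higher and 1001 lower without it. The second called 678 with the block, against 359 higher and 218 lower without it. The filter on low counts passed more of the 10 genes in these fits, 9 against 8 and 8 against 4, so that the counts cannot be set to the block alone. The fit with the block also took Hbegf (-0.89) and Tgfb2 (-1.74) against cDC2 and Hbegf against ILC2 (2.07) past the threshold and changed no other call of these genes. The Tgfb2 value rests on 4 UMIs in resident macrophages and 12 in cDC2. The sign of Igf1 for genotype in resident macrophages turned to -0.011 with the 10 genes kept in the clustering, -0.033 at resolution 1.2 and -0.017 with MULTIseqDemux, and ranged from -0.031 to 0.16 with 1 mouse left out. Vegfb there ranged from -0.27 to 0.10, and Tgfb2 against cDC2 from -1.88 to 0.71. Except for the number of genes tested, the cause of these shifts was not tested. Depth limits Vegfa, Tgfb2 and Hbegf in resident macrophages, which rest on few UMIs per mouse, and Pdgfa, Pdgfb and Vegfb outside macrophages.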

Other observations

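The antibody panel held an antibody to CD304, which is neuropilin-1, a co-receptor of VEGF-A. Its antibodies to integrin chains were not examined here. Per 1000 antibody counts, CD304 had a median of 2.55 over the 10 sums of resident macrophages (2.08 to 3.25), 2.56 in IEG macrophages (n = 9) and 2.33 in inflammatory macrophages (1.02 to 3.21, n = 5). It was lower in cDC2 (1.00), T cells (1.01), B cells (0.670), Saa3 myeloid cells (0.650) and neutrophils (0.424). The highest of the 4 isotype controls had a median of 0.263 in resident macrophages and 0.413 in Saa3 myeloid cells, so that the signal of the latter lay near its background. The ranges of resident and inflammatory macrophages overlapped. Within mice, CD304 went from 2.40 in resident to 1.02 in inflammatory macrophages in mouse 2 and from 3.25 to 2.36 in mouse 7. It went from 2.43 to 2.33 in mouse 9, from 2.85 to 1.52 in mouse 10 and from 2.72 up to 3.21 in mouse 6. This difference in CD304 was not tested. The transcript Nrp1 was called lower in inflammatory macrophages.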
